A study of Mus musculus with 9 samples.

Results

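Transcripts of 9 genes that encode secreted products of Paneth cells were followed in sorted crypt epithelial cells of the mouse small intestine: Lyz1, Mmp7, Ang4, Itln1, Defa17, Defa21, Defa22, Defa24 and Defa30. They were chosen by name, and their Ensembl identifiers were matched to 9 of the 29288 genes in the count table. All 9 passed the filter on low counts, with 18933 genes tested in all. Female wild-type C57BL/6J mice, with no transgene or deletion, were injected intraperitoneally with phosphate-buffered saline (PBS) or with 2 µg of α-galactosylceramide (αGal), a lipid that CD1d presents to natural killer T (NKT) cells. The groups were control (PBS, 18 h, 3 mice), 18h-αGal (αGal, 18 h, 3 mice) and 72h-αGal (αGal, 72 h, 3 mice). Crypt cells of the proximal small intestine were sorted as EpCAM+ and as negative for Ter119, CD31 and CD45. Since no PBS mice were sampled at 72 h, the effect of αGal at 72 h cannot be told apart from that of the time of sampling.

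Paneth cells sit at the base of small intestinal crypts, between the stem cells, and release granules into the crypt lumen. The granules carry antimicrobial proteins that shape and restrain the microbiota. Their α-defensins, called cryptdins in the mouse, are made as inactive precursors that Mmp7 (matrilysin), a metalloprotease of the same granules, cleaves into active peptides. Lyz1 is the Paneth cell lysozyme, which cuts bacterial peptidoglycan. Ang4 is an antimicrobial ribonuclease of the angiogenin family, and Itln1 (intelectin) is a lectin that binds microbial glycans.

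The 5 Defa genes belong to a cluster of near-copies on chromosome 8, which bears on how far their counts can be separated. The last 100 coding bases, all in the last of 2 exons and as long as a sequencing read of this study, are shown from the GENCODE vM39 annotation of GRCm39, 5′ to 3′ on the plus strand. Capitals mark the bases that differ from Defa24. Defa3, the gene that shares most of its sequence with Defa17, is shown as well.
Defa24, chr8:22225291-22225390: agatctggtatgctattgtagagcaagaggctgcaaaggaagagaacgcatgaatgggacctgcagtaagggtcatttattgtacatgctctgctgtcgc
Defa30, chr8:21625417-21625516: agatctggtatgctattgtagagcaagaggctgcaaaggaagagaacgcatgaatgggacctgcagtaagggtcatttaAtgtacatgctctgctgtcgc
Defa17, chr8:22146555-22146654: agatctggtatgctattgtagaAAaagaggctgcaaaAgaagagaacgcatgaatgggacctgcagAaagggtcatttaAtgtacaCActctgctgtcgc
Defa3, chr8:21778197-21778296: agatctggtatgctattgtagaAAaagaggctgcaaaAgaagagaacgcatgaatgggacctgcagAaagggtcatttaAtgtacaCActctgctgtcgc
Defa21, chr8:21516337-21516436: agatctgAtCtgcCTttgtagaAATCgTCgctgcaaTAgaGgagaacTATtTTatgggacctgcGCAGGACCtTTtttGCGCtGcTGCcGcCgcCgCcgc
Defa22, chr8:21653069-21653168: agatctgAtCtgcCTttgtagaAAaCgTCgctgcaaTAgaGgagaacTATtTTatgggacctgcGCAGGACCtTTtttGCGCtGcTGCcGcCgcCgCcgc

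Defa24 and Defa30 differed at 1 of these 100 bases and Defa21 and Defa22 at 1, whereas Defa17 and Defa3 did not differ. Defa17 differed from Defa24 at 7 bases, and Defa21 at 40. To gauge read sharing over whole genes, every run of 100 bases in a gene's reference transcript (Ensembl canonical) was looked up in the transcripts of all other genes. Of such 100-base words, 91.3% were shared for Defa17 (with Defa3), 41% for Defa21 (with Defa22) and 40.6% for Defa22 (with Defa21). The share was 0.302% for Defa30 and 0 for Defa24, whose near-identical coding ends are still told apart by that base. The values of Defa17, Defa21 and Defa22 are therefore uncertain as single genes. Lyz1 shared 2.05% of its words, with Lyz2, the lysozyme of myeloid cells, and Itln1, Mmp7 and Ang4 shared 0. Exons of Mmp7 overlap AV064505 on the opposite strand, and those of Ang4 overlap Ear-ps3. These partners held 10 and 7 counts in all 9 libraries together. Defa30 overlaps the pseudogene Defa-ps4 on the same strand, which had a mean of 1.34 normalised counts.

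The genes lie at chr10:117123698-117128775 (Lyz1, 4 exons), chr9:7692091-7699587 (Mmp7, 6 exons), chr14:51990721-52011053 (Ang4, 2 exons) and chr1:171345690-171368943 (Itln1, 8 exons) in GRCm39. The Defa members lie at chr8:22145772-22146753 (Defa17), chr8:21515557-21516533 (Defa21), chr8:21652290-21653265 (Defa22), chr8:22224506-22225490 (Defa24) and chr8:21609255-21625621 (Defa30). All 9 are annotated as protein-coding.

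Libraries held between 8887861 counts (control replicate 3) and 32722293 counts (control replicate 1), a 3.68-fold range. The 9 transcripts together took from 0.0885% of the counts in control replicate 3 to 0.438% in control replicate 2. The lowest single count was 16, for Defa17 in control replicate 3, above a floor of 3 counts per library. Levels are given as normalised counts, the deposited counts divided by 1 factor per library, and precision from counting excludes the spread between mice.

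Control replicate 3 had the lowest level of all 9 transcripts. The highest level was in control replicate 2 for 4 of them (Lyz1, Itln1, Defa21 and Defa22), in 18h-αGal replicate 2 for 4 (Mmp7, Ang4, Defa24 and Defa30) and in 72h-αGal replicate 1 for Defa17. Summed over the 9, normalised counts were 33172, 80299 and 18693 in the controls, 38664, 83086 and 40976 at 18 h, and 41656, 29246 and 69700 at 72 h. Each group thus held 1 library above the other two, and the ranges of the groups overlapped. The summed level of 10 enterocyte markers had its highest value, 342209, in control replicate 3 and its lowest, 80517, in 72h-αGal replicate 3. Its ranges were 126295 to 342209 in controls, 174636 to 286438 at 18 h and 80517 to 166241 at 72 h, and its part in the Paneth values was not tested. In sorted bulk cells, fewer Paneth cells and less RNA per Paneth cell cannot be told apart.

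Markers of cells outside the gate were low beside the sum of the 9 transcripts, though the myeloid sum exceeded the mean levels of Defa17, Defa21 and Defa22. The summed level of the 7 lymphocyte markers present in the table was 37.3 to 138 normalised counts over all libraries. The 7 myeloid markers summed to 578 to 630 in controls, 544 to 837 at 18 h and 776 to 1016 at 72 h, mostly from Cd68 and Cd14. The 7 endothelial, erythroid and stromal markers summed to 112 to 139 in controls, 36.8 to 64.8 at 18 h and 45.4 to 90.5 at 72 h. Lyz2 had a mean of 14.3, against 26230 for Lyz1.

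**Figure D1:**
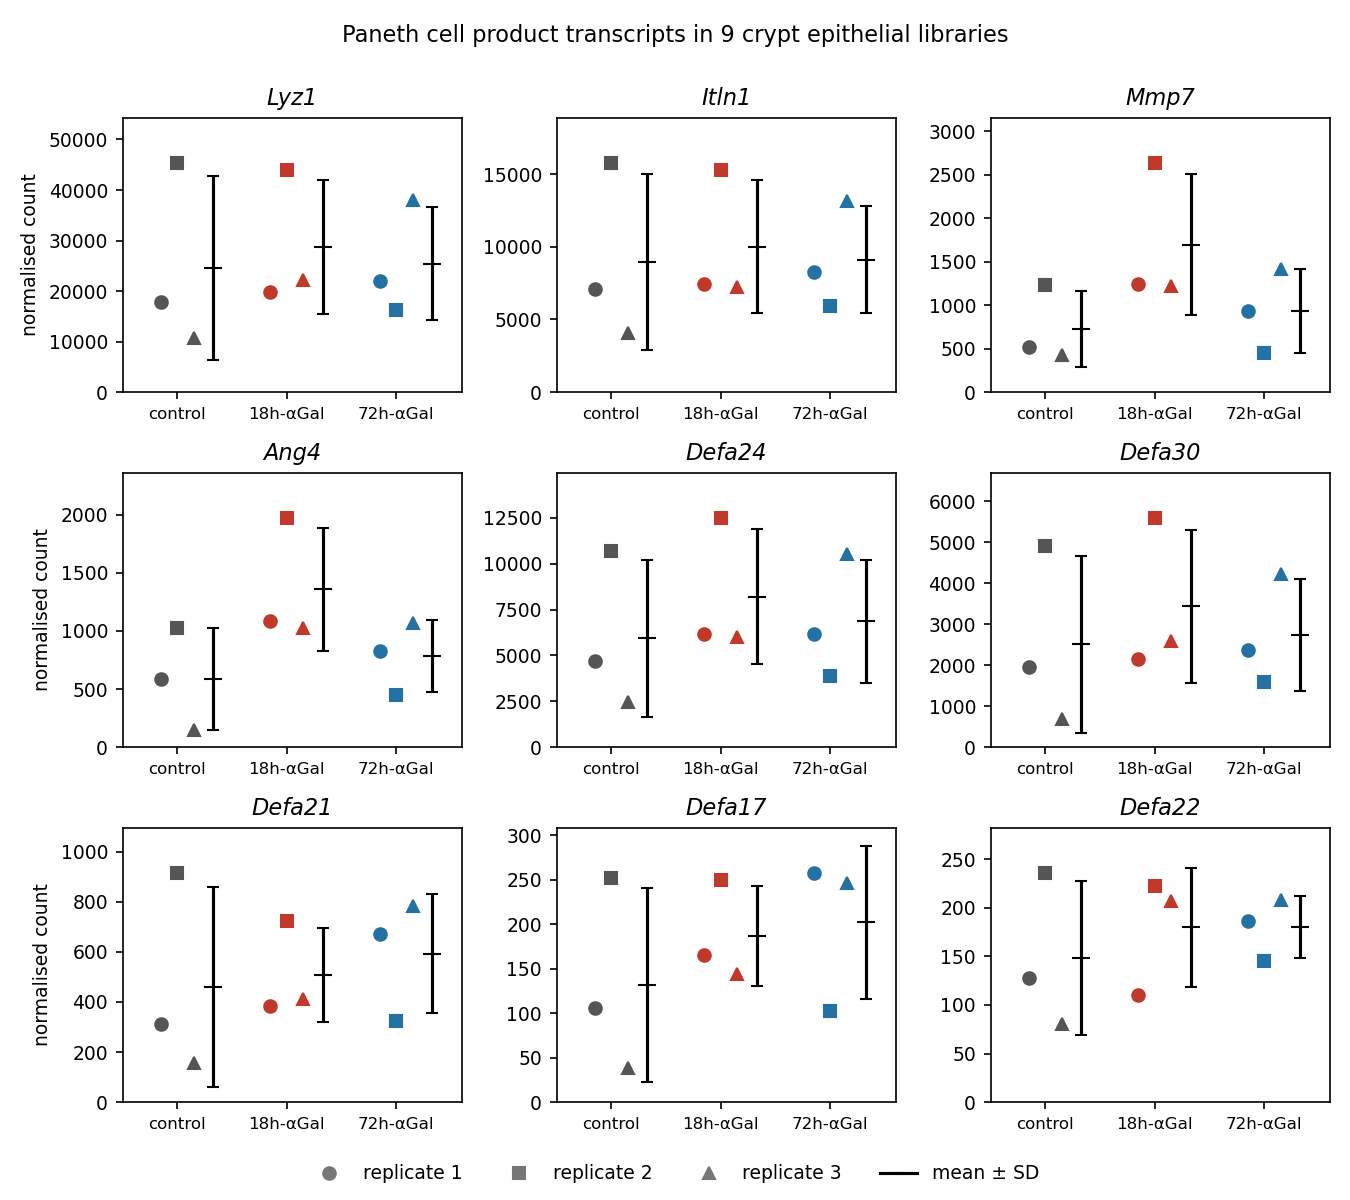
Normalised counts (y axis, linear, from 0) of the 9 transcripts in each library of the control, 18h-αGal and 72h-αGal groups. Symbols are single mice and bars give the mean ± SD of 3. Control replicate 3 is lowest in each panel, and the groups overlap in each panel.

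Per kilobase of the reference transcript, the order of the mean levels over 9 libraries was Lyz1 (20670 normalised counts per kb), Defa24 (16604), Itln1 (8198), Defa30 (6739), Ang4 (1271), Defa21 (1235), Mmp7 (1048), Defa17 (412) and Defa22 (404). Lyz1 was above Defa24, Defa24 above Itln1, Itln1 above Defa30, Defa30 above Ang4 and Mmp7 above Defa17 in 9 of 9 libraries. The neighbours Ang4 and Defa21 changed places from library to library, with Ang4 higher in 4 of 9, as did Defa21 and Mmp7 (Defa21 higher in 5 of 9) and Defa17 and Defa22 (Defa17 higher in 5 of 9). These neighbours did not differ beyond their spread.

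Lyz1 had 17805, 45292 and 10663 normalised counts in control replicates 1 to 3, 19915, 43910 and 22116 in the 18h-αGal libraries, and 21968, 16341 and 38060 in the 72h-αGal libraries. The highest and the lowest value of the whole series were both in control mice. The group means were 24587 ± 18284 (SD, n = 3), 28647 ± 13264 and 25456 ± 11272. Its log2 fold change at 18 h over control was 0.22 (SE 0.64), and edgeR's quasi-likelihood fit gave it an adjusted p of 0.897.

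Itln1 had 7083, 15749 and 4046 normalised counts in controls, 7456, 15305 and 7260 at 18 h, and 8241, 5949 and 13172 at 72 h. It followed Lyz1 from mouse to mouse, with group means of 8959 ± 6073, 10007 ± 4589 and 9121 ± 3691 (SD, n = 3). Its log2 fold change at 18 h was 0.16 ± 0.60 (edgeR adjusted p of 0.922).

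Mmp7 had 516, 1228 and 433 normalised counts in controls, 1243, 2634 and 1218 at 18 h, and 930, 455 and 1417 at 72 h. The lowest 18h-αGal value lay just under the highest control value, and the 72h-αGal values overlapped the controls. The group means were 726 ± 437, 1699 ± 810 and 934 ± 481 (SD, n = 3). The log2 fold change at 18 h was 1.22 ± 0.61, the largest of the 9, with a 95% interval from -0.22 to 2.67 and an edgeR adjusted p of 0.320.

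Ang4 had 586, 1028 and 147 normalised counts in controls, 1082, 1969 and 1022 at 18 h, and 829, 451 and 1066 at 72 h. As for Mmp7, a single control, replicate 2, reached into the 18h-αGal range. The group means were 587 ± 440, 1358 ± 530 and 782 ± 310 (SD, n = 3). The log2 fold change at 18 h was 1.19 ± 0.68, with a 95% interval from -0.44 to 2.82 and an edgeR adjusted p of 0.395.

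Among the α-defensins, Defa24 had 4683, 10696 and 2437 normalised counts in controls, 6150, 12483 and 6014 at 18 h, and 6197, 3890 and 10510 at 72 h. The spread among the controls, 4.39-fold, was wider than the distance between any pair of group means. Its log2 fold change at 18 h was 0.47 ± 0.66 (edgeR adjusted p of 0.764).

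Defa30 had 1952, 4904 and 692 normalised counts in controls, 2158, 5589 and 2582 at 18 h, and 2377, 1587 and 4239 at 72 h. Its controls spread 7.09-fold, the widest among the 9, and enclosed the other groups except for 18h-αGal replicate 2. Its log2 fold change at 18 h was 0.45 ± 0.78 (edgeR adjusted p of 0.817).

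Defa21 had 313, 913 and 157 normalised counts in controls, 383, 723 and 413 at 18 h, and 670, 325 and 782 at 72 h. Defa17 had 106, 252 and 38.0 in controls, 166, 250 and 143 at 18 h, and 257, 103 and 246 at 72 h. Defa22 had 128, 235 and 80.8 in controls, 110, 223 and 207 at 18 h, and 186, 145 and 208 at 72 h. For these low genes, whose words are shared with Defa22, Defa3 and Defa21, each group again overlapped the others. The log2 fold changes at 18 h were 0.12 ± 0.66 for Defa21, 0.47 ± 0.56 for Defa17 and 0.26 ± 0.37 for Defa22, with edgeR adjusted p between 0.705 and 0.950.

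Setting 18h-αGal against control addressed how the transcripts stood soon after NKT cell activation. With p-values adjusted by Benjamini and Hochberg's method over every gene tested, edgeR called 0 of the 9 at a threshold of 0.05, where it called 5.96% of all genes. The count was also 0 at an unadjusted p under 0.05, and 0 in DESeq2 and in limma by both measures. All 9 log2 fold changes were above 0, with a median of 0.45 beside -0.030 over all genes tested. This sign rested on single libraries, since 5 of 9 were above 0 without control replicate 3 (median 0.0094) and 5 of 9 without 18h-αGal replicate 2 (median 0.035). Without control replicate 2 the median was 1.21, 4 of 9 had an unadjusted p under 0.05, and the lowest adjusted p was 0.165 (edgeR). For 0 of the 9 did the normalised counts of both groups stay apart, in either direction. Among all genes, 11.5% were higher and 12.3% lower at 18 h without overlap. The 6 stem cell markers summed to 11720 to 39656 normalised counts at 18 h, against 42510 to 82375 in controls, and edgeR called 0 of 6. The enteroendocrine markers summed to 11769 to 18987 at 18 h, against 8296 to 11224 in controls, with 3 of 8 called higher, and 2 of 5 tuft and 1 of 8 goblet markers were called higher. Their part in the Paneth values was not tested.

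For 72h-αGal against control, 0 of 9 were called by edgeR, beside 0.0264% of all genes, and 0 reached 0.05 unadjusted. DESeq2 and limma called 0 as well, with 0 at an unadjusted p under 0.05. All 9 log2 fold changes were above 0, from 0.038 (Itln1) to 0.59 (Defa17), with a median of 0.28 beside 0.0022 over all genes. The number above 0 dropped to 3 of 9 without control replicate 3 and to 4 of 9 without 72h-αGal replicate 3. No member's groups stayed apart (0 of 9), where 6.36% of genes were higher and 6.3% lower without overlap. The enteroendocrine markers summed to 3711 to 5719 normalised counts at 72 h, and 5 of 8 were called lower. These were all the genes called in this comparison, and the number of genes called was 0 without control replicate 1, 72h-αGal replicate 1 or 72h-αGal replicate 3, 1 without control replicate 2 and 2 without 72h-αGal replicate 2.

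For 72h-αGal against 18h-αGal, edgeR called 0 of 9, beside 10.2% of all genes, and in edgeR, DESeq2 and limma 0 reached 0.05 unadjusted. Mmp7 (-0.85 ± 0.60) and Ang4 (-0.79 ± 0.67) had the lowest log2 fold changes, and Defa21 (0.24 ± 0.65) the highest, with 3 of 9 above 0 and a median of -0.16 beside 0.046 over all genes. The number above 0 was 7 of 9 without 18h-αGal replicate 2 and 0 of 9 without 72h-αGal replicate 3. Again 0 of 9 had groups that stayed apart, where 16.6% of genes were higher and 16.3% lower. The 34 Defa rows of the table were also summed into 1 count, for which the split of counted reads between copies does not matter. Any reads left uncounted for matching several copies are not recovered by the sum. It had log2 fold changes of 0.28 ± 0.68 at 18 h, 0.15 ± 0.68 at 72 h and -0.14 ± 0.68 between the times. The edgeR adjusted p were 0.876, 0.997 and 0.939.

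The intervals show what 3 mice per group could resolve. At 18 h against control, the 95% interval of Lyz1 ran from -1.33 to 1.78, that of Defa24 from -1.11 to 2.05 and that of Defa30 from -1.44 to 2.34 on the log2 scale. Differences of these sizes were not detectable here, and their absence is not shown.

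**Figure D2:**
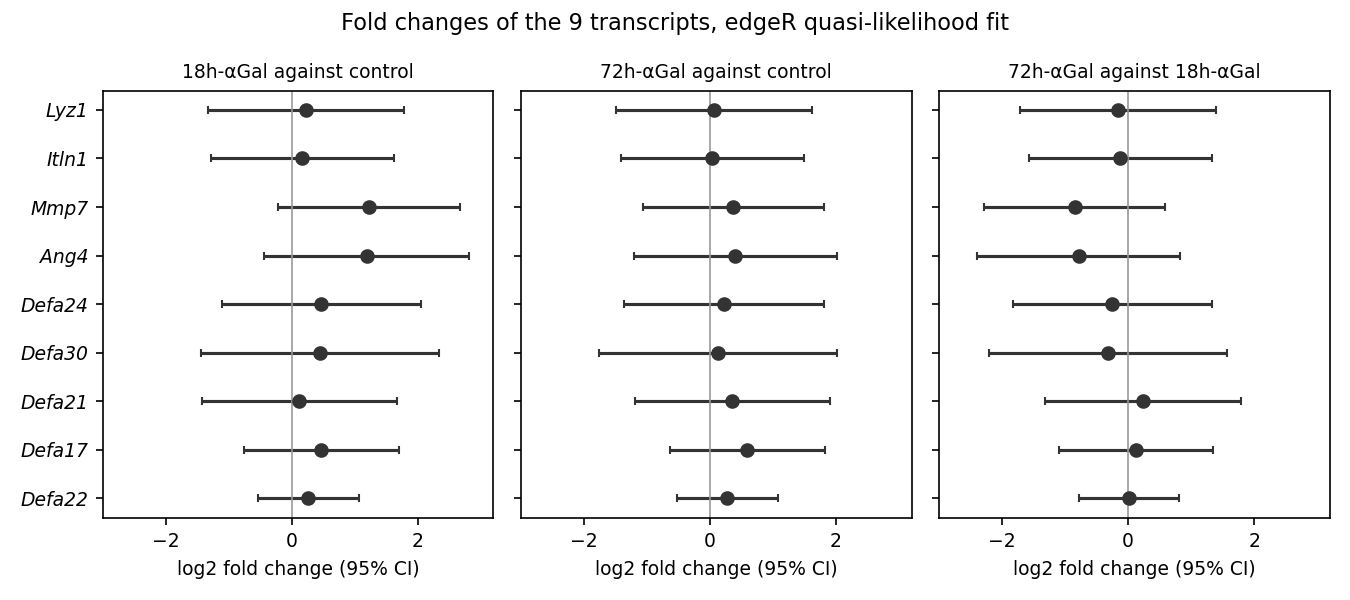
Log2 fold changes (x axis) of the 9 transcripts (y axis) in the 3 comparisons from the edgeR fit, with 95% intervals as bars. The intervals of all 9 transcripts cross 0 in each comparison, and Mmp7 (1.22) and Ang4 (1.19) lie farthest from 0 at 18 h.

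The 9 transcripts moved together across mice. Over the 36 pairs of members, Pearson's r of log2(normalised count + 1) across the 9 libraries was between 0.70 (Mmp7 and Defa22) and 0.99 (Lyz1 and Itln1), with a median of 0.90. These r are descriptive, since the points share libraries, groups and depth. The pattern is the mean of the standardised log levels of the 9. Among 10895 other genes with a mean of at least 100 normalised counts, the most similar to it were Defa39 (r = 0.99), Clps (0.99), Defa29 (0.97), Pnliprp2 (0.97) and Nap1l4 (0.96), over 9 libraries. Defa39 and Defa29 are further α-defensins, Clps encodes colipase, Pnliprp2 a lipase-related protein and Nap1l4 a histone chaperone. Clps had a mean of 735 normalised counts. Colipase is best known from the exocrine pancreas, and 10 acinar markers, which do not include Clps or Pnliprp2, summed to 37.2 to 126 per library. The cells that these transcripts came from were not tested.

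Because the whole panel moved from mouse to mouse, each member was also expressed as a percentage of the Lyz1 count of its own library, a quantity chosen after the levels had been seen. Mmp7 stood at 2.90%, 2.71% and 4.06% of Lyz1 in controls, 6.24%, 6.00% and 5.51% at 18 h, and 4.23%, 2.78% and 3.72% at 72 h. All 3 18h-αGal values lay above every control and every 72h-αGal value. Means of 3 mice were 3.22% ± 0.73 (SD) for controls and 5.92% ± 0.37 for 18h-αGal, a ratio of 1.84. The two-sided exact permutation p was 0.1, the smallest that 3 against 3 mice can give.

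Ang4 stood at 3.29%, 2.27% and 1.38% of Lyz1 in controls, 5.43%, 4.48% and 4.62% at 18 h, and 3.78%, 2.76% and 2.80% at 72 h. As for Mmp7, the 18h-αGal values lay above all others. The mean was 2.31% ± 0.95 in controls and 4.85% ± 0.51 at 18 h, a ratio of 2.09 (two-sided exact permutation p of 0.1, n = 3 per group).

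Itln1 kept a narrow range, from 32.8% to 39.8% of Lyz1 over the 9 libraries, while its level ranged 3.89-fold. Defa24 stood at 26.3%, 23.6% and 22.9% of Lyz1 in controls and at 30.9%, 28.4% and 27.2% at 18 h, without overlap, a ratio of means of 1.19 with an exact permutation p of 0.1. At 72 h it stood at 28.2%, 23.8% and 27.6%. Defa30 stood at 11.0%, 10.8% and 6.49% in controls and 10.8%, 12.7% and 11.7% at 18 h, and the groups overlapped. The shares of Defa21 (1.47% to 3.05%), Defa17 (0.357% to 1.17%) and Defa22 (0.507% to 0.936%) overlapped between 18h-αGal and control.

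In total, 3 of the 8 members other than Lyz1 (Mmp7, Ang4 and Defa24) were higher relative to Lyz1 at 18 h than in control without overlap, and 0 were lower. Among all genes 0.877% were higher and 4.47% lower by the same measure, against 11.5% and 12.3% on levels. Lyz1 spread 4.25-fold among the controls, and dividing by it adds that spread to genes that do not follow it. The members followed Lyz1 (r of 0.84 to 0.99). Shares of all genes by this measure, here and below, are thus not a like background for the members. At 72 h against control, 1 of 8 was higher (Defa17) and 0 were lower, with 1.27% of genes higher and 1.27% lower. Between the times, Mmp7 and Ang4 were lower at 72 h, and Defa21 higher, where 1.86% of genes were lower and 7.29% higher. The exact permutation p of each of these non-overlapping differences was 0.1, for 24 comparisons in all, so none could pass a threshold of 0.05.

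The ratios of Mmp7 and Ang4 were also taken to other members. Relative to Itln1, Mmp7 had a mean of 8.59% ± 1.84 (SD, n = 3) in controls, 16.9% ± 0.28 at 18 h and 9.90% ± 1.97 at 72 h, and Ang4 6.15% ± 2.34, 13.8% ± 0.85 and 8.58% ± 1.31. The 18h-αGal values stayed above both other groups for both genes, and did so relative to Defa24 too. Relative to Defa30, Mmp7 overlapped between 18 h and control, where control replicate 3 stood at 62.5%, while Ang4 did not overlap.

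**Figure D3:**
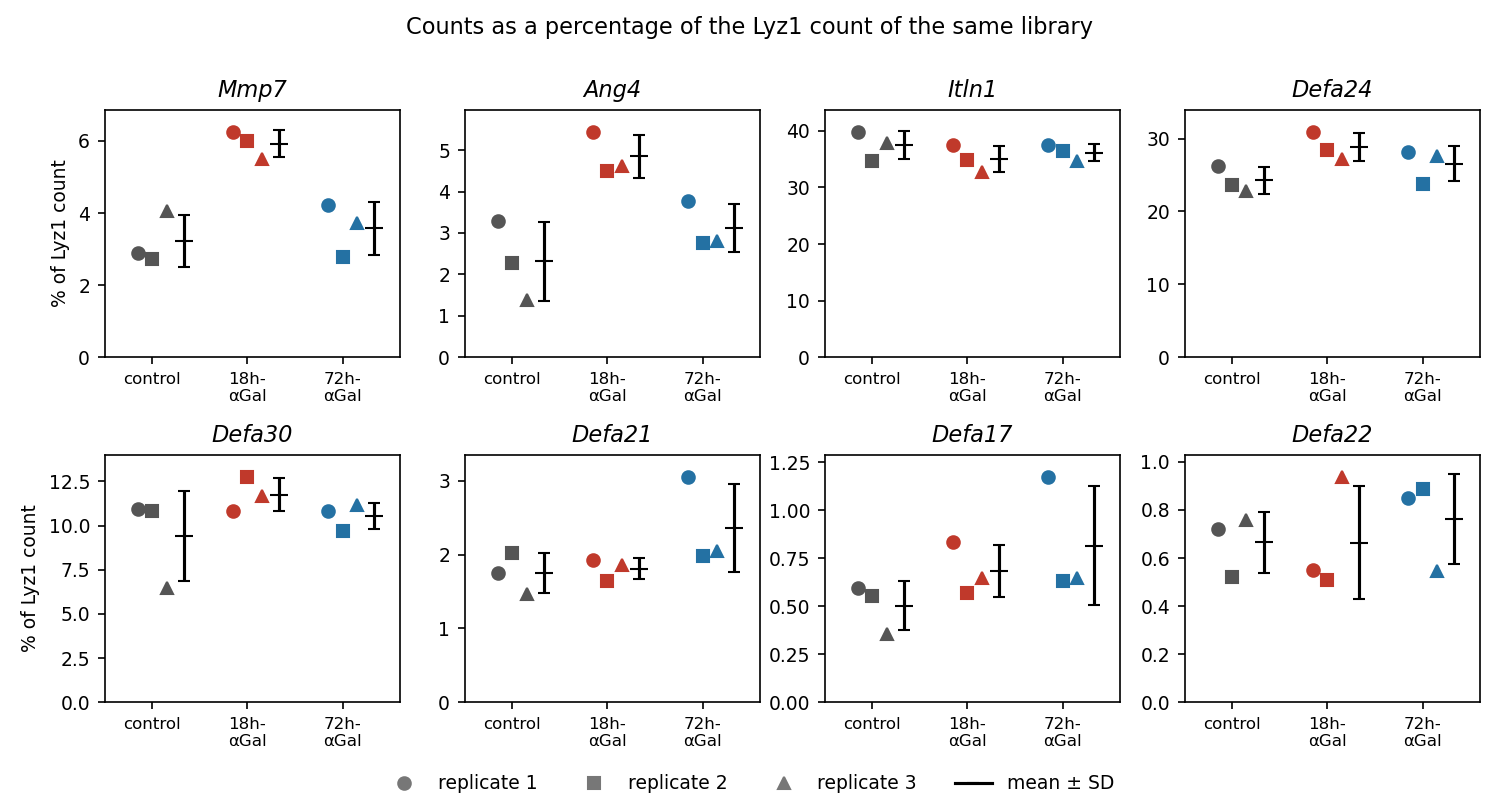
Counts of 8 transcripts as a percentage (y axis, linear, from 0) of the Lyz1 count of the same library, by group, with symbols for single mice and bars for the mean ± SD of 3. The 18h-αGal points of Mmp7 (5.51% to 6.24%) and Ang4 (4.48% to 5.43%) lie above all other points, and Itln1 stays between 32.8% and 39.8%.

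A fit across all genes was then made with the log2 summed level of Lyz1, Itln1 and the Defa genes as a covariate, an alternative added after the levels had been seen. Mmp7 and Ang4 are the members that do not enter that sum, and they had the largest log2 fold changes at 18 h. The adjusted p of this fit do not cover that choice. At 18 h against control, Mmp7 was 0.93 ± 0.18 (SE) and Ang4 0.99 ± 0.21 higher on the log2 scale at an equal secretory level, with edgeR adjusted p of 0.00254 and 0.005. In this fit 11.2% of all genes were called. At 72 h against control the values were 0.18 ± 0.18 (adjusted p of 0.921) and 0.34 ± 0.20 (0.809), with 0.1% of genes called. From 18 h to 72 h they were -0.75 ± 0.17 for Mmp7 (adjusted p of 0.0048) and -0.65 ± 0.20 for Ang4 (0.0332), with 16.4% of genes called.

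Both calls at 18 h were lost without control replicate 2, where the log2 fold changes were 0.76 and 0.85 and the edgeR adjusted p were 0.15 for Mmp7 and 0.152 for Ang4. Both held when any of the other 8 libraries was left out. From 18 h to 72 h, the call of Mmp7 held without any single library (adjusted p of at most 0.0385, edgeR). That of Ang4 was lost without control replicate 2 (0.0544), without 18h-αGal replicate 1 (0.0974), 2 (0.0627) or 3 (0.0602), and without 72h-αGal replicate 2 (0.131) or 3 (0.193).

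A list of 48 other genes was taken from general knowledge, mostly of secretory products of Paneth cells. It included all further Defa genes in the table, pseudogenes such as Defa-ps7 among them, and Lyz2, which is also a listed myeloid marker. Of the 48, 43 were in the table and 34 were tested. At 18 h against control, 0 of 34 were called higher and 1 lower by edgeR, beside 5.96% of all genes called. Of the 34 log2 fold changes, 20 were above 0, with a median of 0.20 beside -0.030 over all genes. The gene called lower was Reg3a, an antimicrobial C-type lectin, with 454, 456 and 1120 normalised counts in controls, 103, 136 and 134 at 18 h, and 376, 450 and 152 at 72 h. Its log2 fold change was -2.42 ± 0.45 (edgeR adjusted p of 0.0124), and the call was lost when any of the 3 18h-αGal libraries was left out. It held without control replicate 3, where the members were lowest and Reg3a highest. Reg3b, of the same lectin family, had 2437, 4677 and 8585 normalised counts in controls and 1177, 1096 and 944 at 18 h, without overlap, and a log2 fold change of -2.27 ± 0.51 (edgeR adjusted p of 0.0539). Unlike the 9 transcripts, both lectins were highest in control replicate 3.

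Reg3g, a bactericidal lectin of that family, overlapped between the groups, with a log2 fold change of -1.07 ± 0.51 (edgeR adjusted p of 0.307). Guca2b, which encodes uroguanylin, had -0.16 ± 0.33 (edgeR adjusted p of 0.845). Like Reg3a and Reg3b, Reg3g (8910) and Guca2b (4113) were highest in control replicate 3, where the summed enterocyte markers were highest. Which cells these listed transcripts came from was not tested. The 2 most abundant other α-defensins, Defa39 (mean of 9034 normalised counts) and Defa38 (5841), had 0.47 ± 0.65 and -0.062 ± 0.66 (edgeR adjusted p of 0.758 and 0.975). Ang, the other angiogenin in the table, whose exons overlap Rnase4, had 0.22 ± 0.29 (0.732), and Lyz2 had 0.098 ± 1.02 (0.973). Mptx2 had 624, 2145 and 328 normalised counts in controls, 1554, 3613 and 1781 at 18 h, and 978, 636 and 1749 at 72 h. Its log2 fold changes were 1.15 ± 0.78 at 18 h and -1.03 ± 0.78 between the times (edgeR adjusted p of 0.481 and 0.495). Those of Pnliprp2 were 0.85 ± 0.63 and -0.50 ± 0.62 (0.521 and 0.706). The values of Mptx2 were close to those of Mmp7 (1.22 and -0.85) and Ang4 (1.19 and -0.79) in the same comparisons. On levels, the pattern was thus not particular to Mmp7 and Ang4. Ratios of Mptx2 and Pnliprp2 to Lyz1 were not taken, so none particular to Mmp7 and Ang4 was shown there either. At 72 h against control and between the times, 0 of 34 were called, where 0.0264% and 10.2% of all genes were. The medians of the list were 0.17 and -0.012, beside 0.0022 and 0.046 over all genes.

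Of the 26 Defa genes that are not pseudogenes in the table, the members Defa24 and Defa30 ranked 3 and 4 per kilobase, after Defa39 and Defa38. The 9 genes with under 25% of their words shared carried 92.8% of the normalised counts of the family. The 14 genes with 50% or more of their words shared carried 4.67%, and their highest level was 926 normalised counts per kb (Defa42), a mean that rested on control replicate 2, with 3128 normalised counts against at most 274 in the other 8 libraries. A low level of such a gene may be low expression or reads that were not assigned, which cannot be told apart here.

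**Figure D4:**
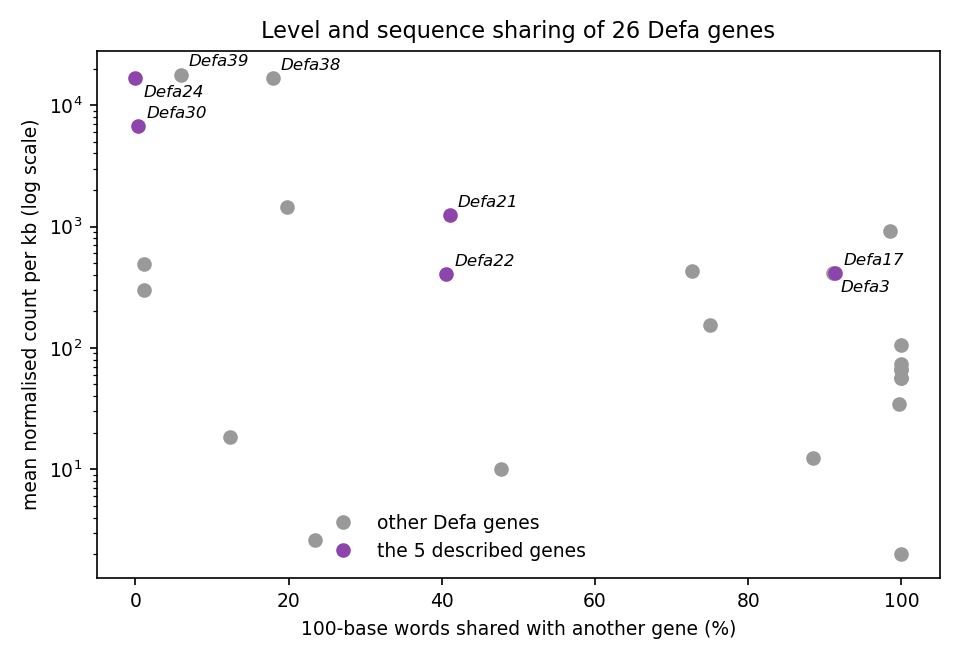
Mean normalised count per kb over 9 libraries (y axis, log scale) of 26 Defa genes against the percentage of their 100-base words found in another gene (x axis). The 5 Defa members are coloured, and the most abundant genes, Defa39, Defa38, Defa24 and Defa30, share under 25% of their words.

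The ratios of near-identical members show how their counts split in each library. Defa30 stood between 28.4% and 45.9% of the Defa24 count, with its lowest value in control replicate 3. Defa22 stood between 25.8% and 51.5% of Defa21. Defa17 held 16 counts in control replicate 3 against 0 for Defa3, and stood between 69.5% and 185% of Defa3 in the other 8 libraries.

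Regulators of Paneth cell fate and of granule biology formed a list of 26 genes, 25 of them tested. In sorted bulk crypt cells, a change in a listed gene cannot be assigned to Paneth cells. At 18 h, edgeR called 1 of 25 higher and 2 lower, beside 5.96% of all genes called. The median log2 fold change was 0.086, beside -0.030 over all genes. Irgm1, an interferon-inducible GTPase linked to autophagy, rose from 1038, 1001 and 1740 normalised counts in controls to 6623, 7967 and 6856, a log2 fold change of 2.52 ± 0.21 with an adjusted p of 5.24e-05. Cftr, the chloride channel, fell from 5712, 6101 and 5573 to 3170, 3126 and 2766 (-0.93 ± 0.11, edgeR adjusted p of 0.000214). Nod2, a sensor of bacterial muramyl dipeptide, fell from 154, 144 and 162 to 45.4, 55.7 and 74.5 (-1.39 ± 0.33, edgeR adjusted p of 0.0222). The call of Nod2 was lost without control replicate 1 or 2 and without 18h-αGal replicate 1 or 2.

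The fate factors Atoh1 (0.15 ± 0.22), Spdef (0.086 ± 0.28) and Sox9 (-0.75 ± 0.29) were not called at 18 h, nor was Xbp1 (0.14 ± 0.12), a factor of the unfolded protein response, with edgeR adjusted p between 0.177 and 0.905. Without control replicate 3, Sox9 was called lower. At 72 h against control, 0 of 25 were called, beside 0.0264% of all genes. From 18 h to 72 h, 3 of 25 were called higher and 1 lower, beside 10.2% of all genes called. Cftr, Nod2 and Fzd5, a Wnt receptor, were higher, with log2 fold changes of 1.04 ± 0.11, 1.12 ± 0.33 and 0.44 ± 0.11. Irgm1 was lower, at 1036, 935 and 701 normalised counts. The calls of Cftr and Irgm1 held without any single library, while those of Nod2 and Fzd5 were both lost without 18h-αGal replicate 1 or 2 or 72h-αGal replicate 1, that of Nod2 also without control replicate 1 or 2 or 72h-αGal replicate 3, and that of Fzd5 also without 72h-αGal replicate 2. As a check of the treatment, all 6 listed interferon-γ response genes were called higher at 18 h (median log2 fold change of 2.12), 0 of 6 were called at 72 h against control, and all 6 were called lower from 18 h to 72 h.

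**Figure D5:**
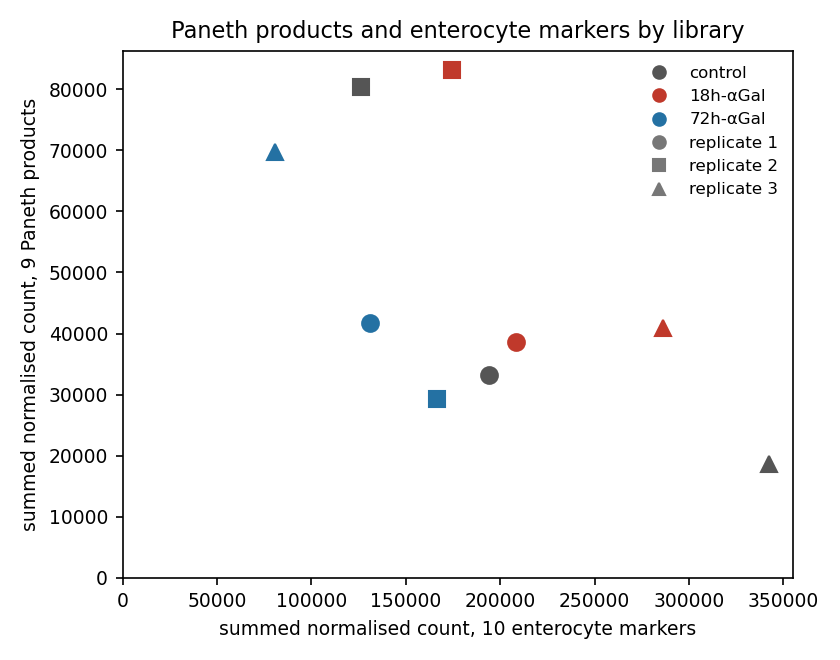
Summed normalised count of the 9 Paneth products (y axis, linear, from 0) against that of 10 enterocyte markers (x axis, linear, from 0), with 1 point per library, colour for the group and shape for the replicate. Control replicate 3 lies at the lower right, with 18693 and 342209, and 72h-αGal replicate 3 at the upper left, with 69700 and 80517.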

How the data were processed

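RNA was sequenced from sorted crypt epithelial cells of 9 mice. The labels give no batch, and each library is taken as 1 mouse. The authors prepared ribosome-depleted, strand-directional libraries, sequenced 100 bp reads, mapped them with HISAT2 and deposited counts per gene. The submitters' processing notes name featureCounts (Subread), DESeq2 1.42.0 and GRCm38/mm10, while the study's methods name GRCm39, so the build of the counts is uncertain. Whether counting used strand, and how reads with several matches were treated, is not given in the sources used here. The deposited normalised signal equalled the count divided by 1 factor per library, which corrects neither length nor sequence content. Symbols, positions and sequences come from GENCODE vM39 (GRCm39), with 28480 of 29288 identifiers matched.

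Counts were tested with edgeR 4.0.16 in R 4.3.3 (filterByExpr, TMM scaling, robust quasi-likelihood fit of all 9 libraries, Benjamini-Hochberg adjustment over 18933 genes, threshold 0.05, common dispersion 0.123). This main test replaced the DESeq2 test of the study, which became an alternative (1.42.0), as did limma 3.58.1 on log2(normalised signal + 1). The other alternatives were another scaling, scaling without the Defa genes and members, no filter, summed Defa counts, only the groups compared, a replicate block and leaving out each library. P-values measure the spread between these samples. Scripts were tested on simulated data. Standard errors were derived from the F statistic of the fit. The intervals of log2 fold changes were built on these standard errors and include the spread between mice. Floors (3 counts) on counts cover counting error only.

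The 9 genes and the gene lists were chosen with earlier results of these data known, and the lists come from general knowledge. Named by rule were the 9 genes, their tested paralogs, listed genes that were called, the 5 most abundant other Paneth products and the 5 genes most similar in pattern. Not every paralog or called marker is named in the text. Sox9, Atoh1, Spdef, Xbp1, Defa-ps4, Mptx2, Cd14 and Cd68 fall outside the rule, and they and the ratios were singled out after their values were seen.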

Additional observations from a re-analysis of the deposited data

Results flagged for a closer look

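With the secretory level (the summed level of Lyz1, Itln1 and the Defa genes) as a covariate, the log2 fold changes of Mmp7 and Ang4 against the shared controls differed between the 2 times of sampling. The difference, 72h-αGal against 18h-αGal, was -0.75 ± 0.17 (SE) for Mmp7 and -0.65 ± 0.20 for Ang4, with edgeR adjusted p of 0.0048 and 0.0332. In the same comparison this fit called 16.4% of all genes. Relative to Lyz1, both genes were lower in 3 of 3 mice at 72 h than in any mouse at 18 h. Without the covariate, neither difference had an adjusted p under 0.05 in edgeR (0.458 and 0.553). Mptx2, a further listed Paneth product, had -1.03 ± 0.78 without the covariate (edgeR adjusted p of 0.495) and was not examined with it. The covariate was chosen after the levels had been seen, and the adjusted p do not cover that choice. The difference of Ang4 lost its call without control replicate 2, any 18h-αGal library, or 72h-αGal replicate 2 or 3, with adjusted p of up to 0.193 (edgeR), and that of Mmp7 kept it without any single library.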

How the results depend on the processing

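The number of members called, 0 of 9 in each of the 3 comparisons, was 0 under 17 other settings (0 of 4 non-Defa members where Defa counts were summed). A further setting, the secretory covariate, added after the data were seen, called Mmp7 and Ang4 at 18 h and from 18 h to 72 h. It called 11.2% and 16.4% of all genes in these comparisons. Of 444 member fold changes under these 17 settings, 405 kept their direction and their side of the threshold and 39 changed sign, 37 of them on leaving out 1 library. Among values that changed sign with a library left out in turn, those at 18 h against control ranged from -0.23 to 1.02 for Lyz1, -0.28 to 0.85 for Itln1, -0.27 to 1.08 for Defa21, -0.016 to 0.76 for Defa22 and -0.094 to 1.37 for Defa30. At 72 h against control they ranged from -0.35 to 0.86 for Lyz1, -0.071 to 0.996 for Mmp7, -0.023 to 1.05 for Ang4, -0.33 to 0.73 for Itln1, -0.027 to 1.31 for Defa21, -0.23 to 0.96 for Defa24 and -0.35 to 1.05 for Defa30. From 18 h to 72 h they ranged from -0.58 to 0.29 for Lyz1, -0.49 to 0.32 for Itln1, -0.078 to 0.44 for Defa17, -0.026 to 0.59 for Defa21, -0.24 to 0.21 for Defa22, -0.70 to 0.19 for Defa24 and -0.79 to 0.22 for Defa30. The others kept their sign, with 0.76 to 1.85 for Mmp7, 0.76 to 1.84 for Ang4, 0.072 to 1.30 for Defa17 and 0.035 to 1.21 for Defa24 at 18 h, 0.198 to 1.424 for Defa17 and 0.0076 to 0.78 for Defa22 at 72 h, and -1.29 to -0.38 for Mmp7 and -1.08 to -0.42 for Ang4 between the times. The cause was not tested. With a replicate block (the replicate number as a term), Lyz1 from 18 h to 72 h was 0.029 and Itln1 0.059 on the log2 scale. Same-numbered libraries correlated between -0.15 and 0.11 in their deviations from the group means, and others between -0.10 and 0.14. No pairing by number was seen in these values, and whether same-numbered mice shared a batch was not tested. The block gave 781, 1 and 1371 called genes, against 1128, 5 and 1936. DESeq2 called 1720 genes at 18 h and 31 at 72 h, the fit of only the groups compared 593 at 18 h, and the fit without a filter 13 at 72 h. Leaving out a library gave 432 to 1556, 0 to 20 and 831 to 2593. Counts were lowest in control replicate 3, at 16 for Defa17, 34 for Defa22, 62 for Ang4 and 66 for Defa21, and 0 for Defa3.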
